A study of Mus musculus with 27 samples.

Results

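The genes described here encode the subunits of the oxidative phosphorylation (OXPHOS) complexes that are carried in the nuclear genome, measured in the livers of mice with and without carbon tetrachloride (CCl4) injury. They were chosen by a symbol pattern, with earlier results of these data known. It takes protein-coding genes named Nduf with a, b, c, s or v and a number, Sdha to Sdhd or Uqcr. It also takes Cox4 to Cox8 with a letter a to c, and Atp5, and leaves out the Ndufaf assembly factors. The pattern took 87 genes, of which 81 had a mean of at least 10 counts per mouse and were kept, among 14114 genes that passed the same minimum of 55414 in the table. The 81 genes fell into 36 of complex I, 4 of complex II, 8 of complex III, 15 of complex IV and 18 of complex V. The 6 genes under the minimum were Ndufb11b, Cox6a2, Cox7b2, Cox8b, Cox8c and a second entry named Atp5po. Ndufa4 and its relative Ndufa4l2 were counted with complex IV, and Cox5b-ps, which the annotation lists as protein-coding despite its pseudogene name, was kept with it. The pattern does not take Cox4i1, Ndufab1 or Cyc1, so these are given further on as neighbours.

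Oxidative phosphorylation takes place in the inner mitochondrial membrane. Complexes I and II pass electrons from NADH and succinate to ubiquinone, complex III passes them on to cytochrome c, complex IV passes them to oxygen, and the proton gradient built by complexes I, III and IV drives ATP synthesis by complex V. Complex I, III, IV and V combine subunits encoded in mitochondrial DNA with a larger number encoded in the nucleus, whereas complex II is wholly nuclear. Hepatocytes are rich in mitochondria and rely on this pathway for the energy cost of urea, glucose and protein synthesis, and CCl4 is a hepatotoxin that is activated by cytochrome P450 enzymes in these cells.

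The RNA came from whole liver homogenate of female Balb/c mice, aged 8 weeks by the methods of the study, 27 mice in 8 groups. In the arms without CCl4, mice received olive oil with tail vein PBS (control, 4 mice), with 4MU by gavage (4MU, 3 mice), with an siRNA against luciferase in lipid nanoparticles (siLuc-LNP, 3 mice) or with an siRNA against Has2 in the same nanoparticles (siHAS2-LNP, 3 mice). In the fibrosis arms, intraperitoneal CCl4 was given over 2 weeks alone (CCl4, 2 mice), with 4MU (CCl4 + 4MU, 4 mice), with siLuc-LNP (CCl4 + siLuc-LNP, 4 mice) or with siHAS2-LNP (CCl4 + siHAS2-LNP, 4 mice). 4MU, 4-methylumbelliferone, is an inhibitor of hyaluronan synthesis and Has2 encodes a hyaluronan synthase. The CCl4 group has 2 mice and its label names no tail vein or gavage vehicle, so agent and vehicle cannot be told apart in comparisons with it. As described here, control mice had tail vein PBS and 4MU mice were gavaged. Drug and route can therefore not be told apart in 4MU against control or in the 4MU interaction either. The methods of the study state that control mice were gavaged with carboxymethyl cellulose, without naming the group. In homogenate, fewer cells of a type and less RNA per cell cannot be told apart.

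Total counts ran from 7044386 to 29425937 per mouse. TMM scaling factors ran from 0.815 to 1.32. Has2 itself had 0 to 2 counts per mouse, 3 counts in all, so its knockdown could not be checked in these libraries. Alb, the main plasma protein of hepatocytes, had a median of 143377 CPM in control livers and 79245 CPM in the CCl4 group, so the tissue label held. Of the 10 hepatocyte markers 1 rose and 3 fell with CCl4 over all arms. In that comparison 51.9% of all tested genes were called, 26.3% higher and 25.6% lower. The other marker counts of this paragraph stand beside the same shares. The summed level of the 10 hepatocyte markers spanned 133460 to 210055 CPM in the 13 mice without CCl4 and 82420 to 191717 CPM in the 14 mice with it, and 5 proliferation markers spanned 2.25 to 28.2 CPM and 44.4 to 552 CPM. The 8 stellate cell and fibroblast markers spanned 179 to 368 CPM without CCl4 and 271 to 938 CPM with it. Over all arms Col1a1, Col3a1, Acta2, Des and Pdgfrb rose and Lrat did not pass. Dcn, the largest part of the sum in control livers with a median of 188 CPM, fell by 0.46 on the log2 scale. All 5 ductal markers rose, from 29.5 to 77.0 CPM in sum without CCl4 to 109 to 692 CPM with it. Among the others tested, 3 macrophage markers rose and 2 fell of 8, 3 endothelial markers rose and 1 fell of 6, 1 lymphocyte marker rose and 1 fell of 5, and 2 of 3 erythroid markers fell. Their part in the subunit results was not tested.

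In control livers, the subunit genes ranged over more than an order of magnitude when CPM were divided by the length of the canonical transcript in kilobases (FPKM scale). The median level was 115 FPKM. By complex, the medians were 80.9 FPKM for complex I, 115 for complex II, 156 for complex III, 175 for complex IV and 161 for complex V. The highest level was that of Ndufa4, a small complex IV subunit, at 606 ± 88.3 FPKM (SD, n = 4), and it was not separated beyond its spread from Atp5f1b, the catalytic beta subunit of ATP synthase, at 587 ± 79.2 FPKM. Cox6c, a small structural subunit of cytochrome c oxidase, stood at 515 ± 90.5 FPKM and Atp5mc3, one of the genes for the membrane c ring, at 505 ± 94.6 FPKM. In complex I, Ndufa6, an accessory subunit of the LYR family, led with 237 ± 44.7 FPKM, and the core subunit Ndufv1 stood at 114 ± 11.3 FPKM. Ndufs1, the largest core subunit, which carries iron-sulfur clusters, stood at 26.6 ± 3.67 FPKM over a transcript of 3613 bases. These levels depend on the transcript taken as canonical: for Ndufb9 it was 4197 bases long and for Ndufb2 4389 bases, with coding regions of 537 and 315 bases.

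Genes of this family have many processed copies in the genome, and the authors did not count reads that mapped to more than 1 place. Of the 31-base windows of each canonical transcript, a median of 8.7% also occurred outside the gene's own locus in GRCm39, and the share was under 5% for 36 genes and over 50% for 8. Atp5mc2, a c ring gene, had 88.7% and its sister gene Atp5mc1 85.2%. Cox5b-ps had 83.5%, Ndufs5 80.0%, Uqcrb 74.1%, Atp5mg 73.5%, Cox7c 72.5% and Cox7a2l, which takes part in respiratory supercomplexes, 58.8%. Reads were paired and longer than these windows, so a shared window need not make a read map to several places. The share of reads lost was not measured, so levels and changes of these 8 genes are uncertain to an unknown degree.

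Genes of one pathway that move together can share promoter elements, so the 300 bases from 250 before to 50 after the annotated starts were searched for 5 short motifs on both strands, in RefSeq sequence of GRCm38.p6. A promoter was found for 66 of the 81 genes, with 71 start sites in all. The 10-letter nuclear respiratory factor 1 core, which reads the same on both strands and is spelled by the capitals in the Atp5mc2 stretch, was present in 5 of the 66 genes (7.58%) and in 1.07% of all 27025 genes with a promoter. The 10-letter YY1 motif, spelled by the capitals in the Atp5pf stretch, was present in 5 (7.58%) and in 0.995% of all genes. The ETS family motif CCGGAAGT was present in 5 (7.58%) and 4.31%, the estrogen-related receptor motif TCAAGGTCA in 2 (3.03%) and 0.466%, and the Sp1 core GGGCGG in 26 (39.4%) and 38.2%. No motif contains another. Of the 15 genes with a promoter that were lower with CCl4 over all arms, 0 held the nuclear respiratory factor 1 core, 1 held the ETS motif and 1 the YY1 motif. A match is a run of letters and was not tested as a binding site. The stretches that follow show the motif in capitals for 2 genes that were lower with CCl4 and for 2 genes with the nuclear respiratory factor 1 core, each on the strand of the gene and wholly before its start.
Uqcr11 (chr10:80406855-80406912, minus strand, ETS motif): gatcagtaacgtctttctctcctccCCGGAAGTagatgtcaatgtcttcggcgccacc
Atp5pf (chr16:84835030-84835089, minus strand, YY1 motif): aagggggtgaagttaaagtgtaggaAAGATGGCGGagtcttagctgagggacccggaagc
Atp5mc2 (chr15:102671055-102671114, minus strand, nuclear respiratory factor 1 core): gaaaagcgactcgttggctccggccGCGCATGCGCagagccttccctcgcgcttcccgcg
Cox6a1 (chr5:115349086-115349145, minus strand, nuclear respiratory factor 1 core): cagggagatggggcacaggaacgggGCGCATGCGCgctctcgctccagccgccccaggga

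Across the 27 mice the subunit genes rose and fell together, and most of that movement lay between mice of the same group. On log2(CPM + 0.5), each gene centred on its own mean, the first principal component held 60.3% of their variance and the second 12.6%. The correlation of a gene with the mean of the 81 genes had a median of 0.79 over the 27 mice, and it was above 0.8 for 38 genes and below 0.5 for 12. Uqcrq, a small complex III subunit, followed the mean most steeply, with a slope of 1.93, ahead of Ndufa2 (1.81), Ndufa7 (1.81), Ndufs7 (1.79) and Uqcr11 (1.77). At the other end stood Ndufs1 with a slope of -0.47, Sdha, the flavoprotein of complex II, with -0.05, Uqcrc2, a core protein of complex III, with 0.02 and Atp5f1b with 0.14. The coding regions of these genes had 2181 bases for Ndufs1, 1992 for Sdha, 1359 for Uqcrc2 and 1587 for Atp5f1b, against 246 for Uqcrq and 168 for Uqcr11. Short genes were also among the 12 with a correlation below 0.5, namely Atp5if1, Sdhd, Atp5mc2, Ndufa12, Cox6b2 and Cox7a1, with 240 to 477 bases.

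**Figure D1:**
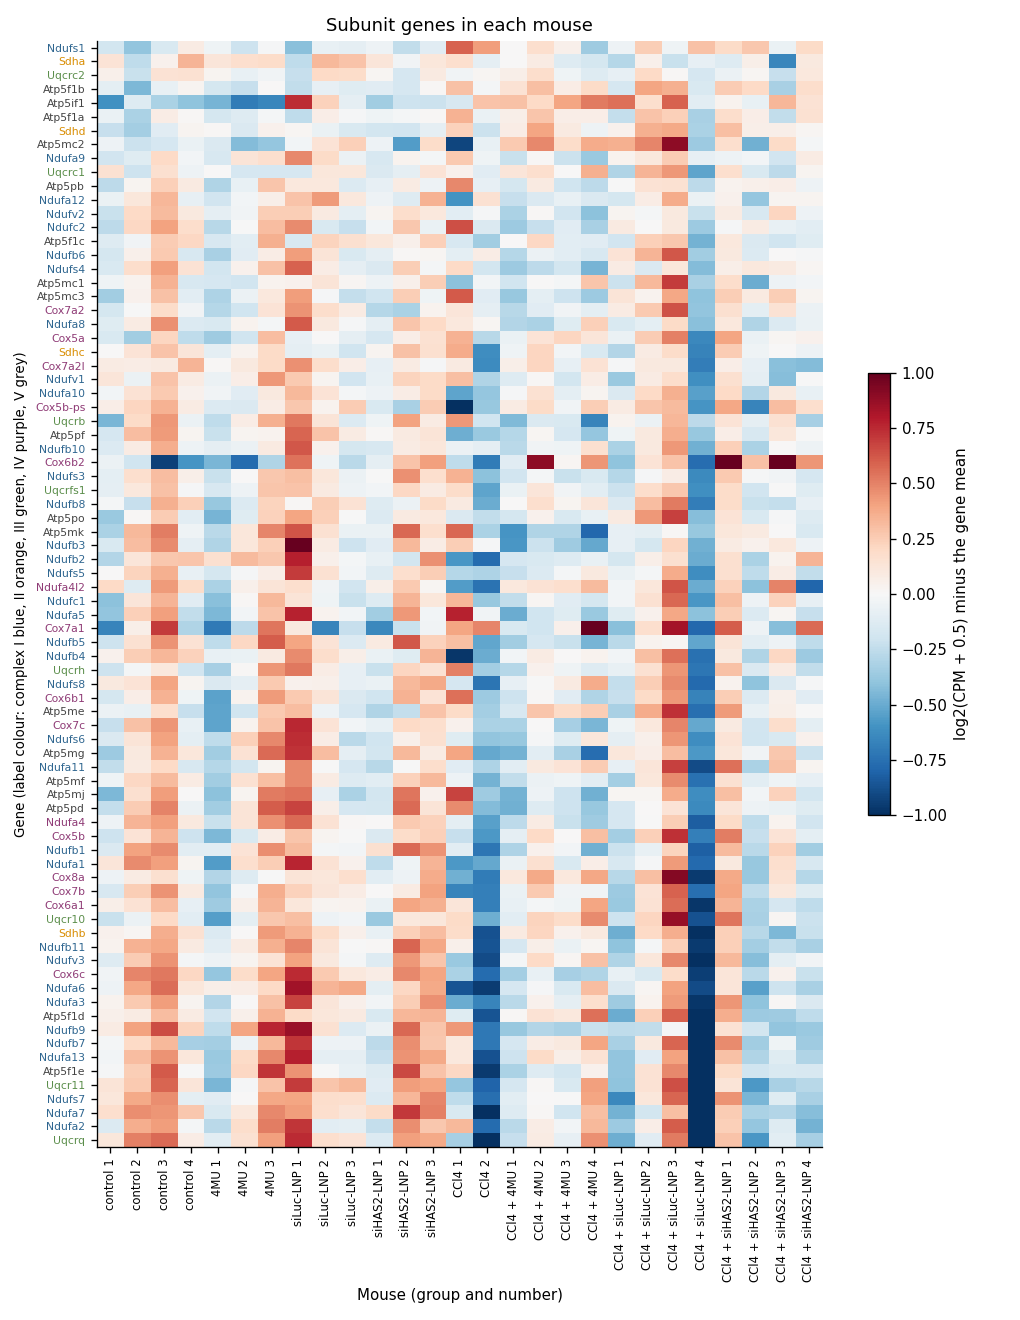
Each row is a subunit gene, each column 1 of the 27 mice, and the colour is log2(CPM + 0.5) minus the gene's mean, with colours ending at 1 and -1. Genes are ordered by their slope on the mean of all 81, from Ndufs1 at the top to Uqcrq at the bottom, and CCl4 + siLuc-LNP mouse 4 and CCl4 mouse 2 are low in most rows of the lower part while siLuc-LNP mouse 1 and CCl4 + siLuc-LNP mouse 3 are high.

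The same order of mice appeared in a property of the whole library. In each mouse, the log2 deviation of 12650 other protein-coding genes was regressed on the log2 length of their canonical transcript, and a positive slope means that long transcripts were counted relatively more often than in the average library. The mean deviation of the 81 subunit genes fell as this slope rose, with Pearson's r = -0.88 and Spearman's rho = -0.84 over 27 mice. Without the 2 mice farthest from the median slope r was -0.79, within the 14 mice with CCl4 it was -0.89 and within the 13 mice without CCl4 -0.86. The points share library, depth and scaling, and the values are a description. The slope ran from -0.11 to 0.06 without CCl4, with a median of -0.04, and from -0.09 to 0.21 with CCl4, with a median of 0.03, so it moved with the treatment too. Fits with an offset for transcript length and GC content are therefore given beside the CCl4 results.

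**Figure D2:**
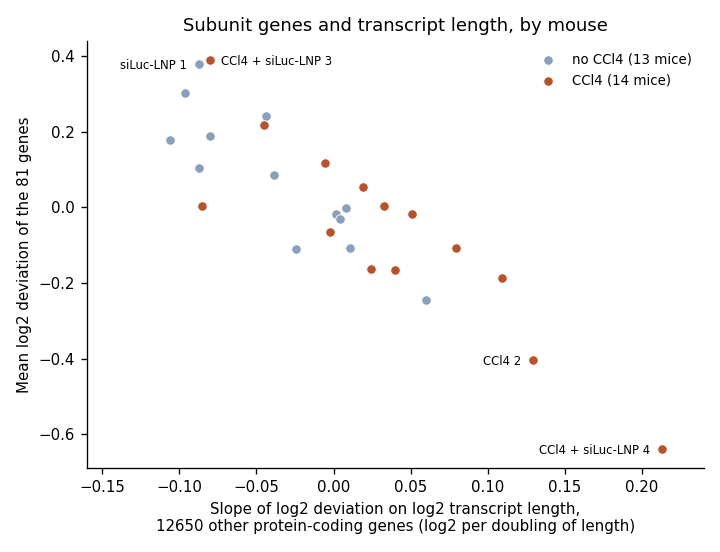
The vertical axis is the mean log2 deviation of the 81 subunit genes and the horizontal axis the slope of 12650 other protein-coding genes on log2 transcript length, 1 point per mouse. Both sets of mice, 13 without and 14 with CCl4, lie on a falling band that ends with CCl4 + siLuc-LNP mouse 4 at a slope of 0.21 and a mean deviation of -0.64.

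The summed level of the 81 genes did not separate any group. It was 13661 ± 1429 CPM (SD, n = 4) in control livers, 13125 ± 2010 (n = 3) with 4MU, 14171 ± 1507 (n = 3) with siLuc-LNP and 13812 ± 1348 (n = 3) with siHAS2-LNP. With CCl4 it was 10427 and 14469 CPM in the 2 untreated mice, 12976 ± 854 (n = 4) with 4MU, 12988 ± 3430 (n = 4) with siLuc-LNP and 12977 ± 1371 (n = 4) with siHAS2-LNP. The CCl4 + siLuc-LNP group held both the lowest sum of all mice, 9015 CPM in mouse 4, and the highest, 16841 CPM in mouse 3. With total counts alone the mean of the 2 mice with CCl4 alone was above that of control, 15034 against 12574 CPM. Ranges without CCl4, 11274 to 15814 CPM, and with CCl4 overlapped almost entirely.

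**Figure D3:**
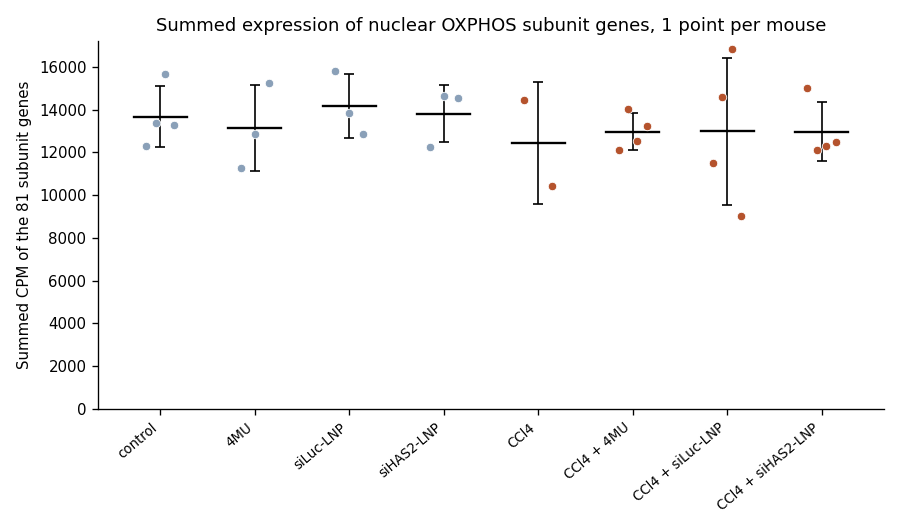
Summed CPM of the 81 subunit genes on a linear axis from 0, 1 point per mouse, with the group mean and SD as black bars (blue-grey without CCl4, brown with CCl4). The groups overlap, and the CCl4 + siLuc-LNP mice spread from 9015 to 16841 CPM.

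The comparison of CCl4 with no CCl4 over all 4 arms asked how the injury itself changed the genes. Of the genes that fell, Ndufa6, Ndufa7, Ndufb9, Cox6c and Uqcrq changed most, to 0.671 to 0.696 times their level without CCl4, while Ndufs1, Atp5f1b, Sdhd and the ATP synthase inhibitor Atp5if1 rose. Of 81 genes 23 passed an adjusted p of 0.05 in edgeR's quasi-likelihood test, 4 higher and 19 lower, against 51.9% of all tested genes (26.3% higher and 25.6% lower) beside 28.4% of the family. Its median log2 fold change was -0.18, beside -0.02 over all genes, and its median absolute change was 0.21, beside 0.29. DESeq2 called 27, among them all 23. Scaled by total counts alone the split turned to 15 higher and 8 lower, with a median of -0.01 where the median of all genes was 0.16, so relative to all genes the family still lay 0.17 lower, and 12 of the 23 were called. With the offset for transcript length and GC content 8 were higher and 32 lower, all 23 among them, but 58.2% of all genes were then called and the family's median was -0.14 beside -0.09 over all genes. Leaving out CCl4 + siLuc-LNP mouse 3 raised the count to 38, with 3 higher and 35 lower. Each of the 23 kept its sign in 35 alternatives and 9 of them were called in every one. Between the 14 mice with CCl4 and the 13 without it, 0 of the 81 genes had separate ranges, against 4.58% of all tested genes.

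**Figure D4:**
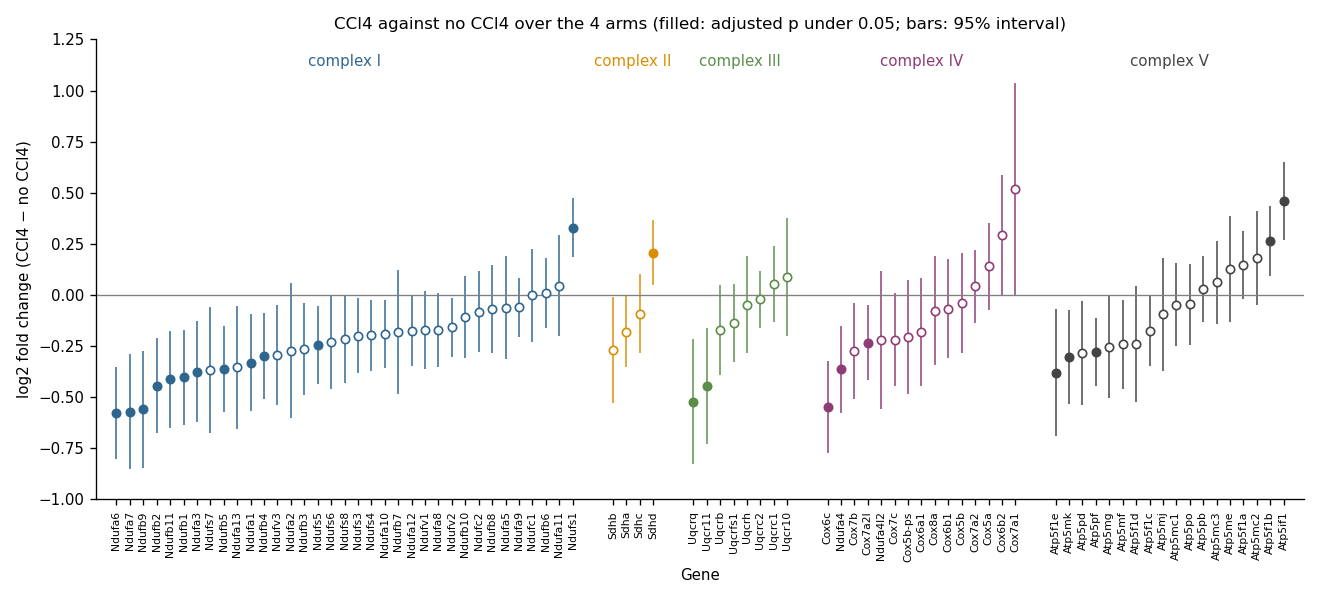
Log2 fold change of CCl4 against no CCl4 over the 4 arms for the subunit genes, ordered within each complex, with its 95% interval, filled where the adjusted p was under 0.05. In complex I 32 genes lie below 0 and Ndufs1 stands apart at 0.33, under TMM scaling. With total counts alone, where the median of all genes was 0.16, the called genes of the family were 15 higher and 8 lower.

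Of the 36 genes of complex I 1 was higher and 11 were lower, and 32 lay below 0, with a median of -0.21. This count and those by role and by complex that follow stand beside 26.3% higher and 25.6% lower over all tested genes. The 11 that fell were among 29 accessory subunits, of which the other 18 did not pass. Of the 7 nuclear core subunits that carry the redox centres and the quinone site, 1 was called, Ndufs1, and it rose. Core and accessory subunits were not tested against each other. Ndufa6 had 112, 152, 170 and 125 CPM in control livers and 63.4 and 59.7 CPM with CCl4 alone. It had 121, 122 and 133 CPM with 4MU and 103, 115, 104 and 143 CPM with CCl4 + 4MU. With siLuc-LNP it had 207, 147 and 150 CPM and with CCl4 + siLuc-LNP 104.8, 117, 153 and 62.2 CPM. The 2 mice with CCl4 alone and CCl4 + siLuc-LNP mouse 4 were the lowest, and 12 of 14 mice with CCl4 lay below the median without it. With siHAS2-LNP the values were 108, 134 and 151 CPM, and with CCl4 + siHAS2-LNP 126, 79.3, 100 and 92.5 CPM. Over the arms Ndufa6 fell by 0.58 ± 0.11 on the log2 scale (SE, adjusted p = 0.000186).

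Ndufa7, another accessory subunit, spanned 86.3 to 157 CPM without CCl4 and 34.1 to 119 CPM with it, and fell by 0.57 ± 0.14 (adjusted p = 0.00185). Ndufb9, a LYR protein of the membrane arm, spanned 77.8 to 169 CPM and 42.0 to 125 CPM and fell by 0.56 ± 0.14 (adjusted p = 0.00236). Both overlapped between the sets of mice. Ndufb2, Ndufb11, Ndufb1, Ndufa3, Ndufb5, Ndufa1, Ndufb4 and Ndufs5 fell by 0.44 to 0.25 on the log2 scale. Of these, only Ndufb2 and Ndufb11 were still called with total counts alone, and Ndufa1 and Ndufs5 were also lost with a replicate block. Ndufs1 moved the other way, from 94.3, 81.05, 96.1 and 113 CPM in control livers to 161 and 143 CPM with CCl4 alone. It had 107, 120, 111 and 83.3 CPM with CCl4 + 4MU, 103, 127, 104 and 131 CPM with CCl4 + siLuc-LNP and 122, 129, 102 and 122 CPM with CCl4 + siHAS2-LNP. The 9 mice of the other arms without CCl4 lay between 79.9 and 106 CPM, so 13 of 14 mice with CCl4 exceeded the median without it, and the sets overlapped between 83.3 and 113 CPM. Ndufs1 rose by 0.33 ± 0.07 (adjusted p = 0.000675). Ndufv1, the core subunit that binds NADH and FMN, had a change of -0.17 ± 0.10 that did not pass (adjusted p = 0.145).

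In complex II, Sdhd, a membrane anchor, spanned 186 to 243 CPM without CCl4 and 189 to 310 CPM with it and rose by 0.21 ± 0.08 (adjusted p = 0.0365). Sdhd was called in 24 of the 35 alternatives. The other subunits had negative values that did not pass, -0.18 ± 0.09 for Sdha, -0.27 ± 0.13 for the iron-sulfur protein Sdhb and -0.09 ± 0.10 for the anchor Sdhc. In complex III, 2 of 8 genes fell. Uqcrq had 356, 467, 488 and 346 CPM in control livers and 261 and 146 CPM with CCl4 alone, fell by 0.52 ± 0.16 over the arms (adjusted p = 0.0073), and lay below the median without CCl4 in 11 of 14 mice. Uqcr11, the smallest subunit of complex III, fell by 0.44 ± 0.14 (adjusted p = 0.0126). The Rieske protein gene Uqcrfs1 and the core protein genes Uqcrc1 and Uqcrc2 had -0.14 ± 0.10, 0.05 ± 0.09 and -0.02 ± 0.07 and did not pass.

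In complex IV, 3 of 15 genes fell. Cox6c had 204, 292, 300 and 240 CPM in control livers, 159, 238 and 275 with 4MU, 351, 250 and 224 with siLuc-LNP and 220, 292 and 275 with siHAS2-LNP. With CCl4 it had 168 and 122 CPM alone, 165, 198, 166 and 169 with 4MU, 198, 188, 237 and 108 with siLuc-LNP and 226, 173, 215 and 179 with siHAS2-LNP. All 14 mice with CCl4 lay below the median without it, 250 CPM, although the sets overlapped through 4MU mouse 1 and a few others. Cox6c fell by 0.55 ± 0.12 (adjusted p = 0.00035), and it was called under each alternative. Ndufa4 fell by 0.36 ± 0.11 (adjusted p = 0.00705) and Cox7a2l by 0.23 ± 0.09 (adjusted p = 0.0383). Cox7a2l was called in 20 of the 35 alternatives, and was lost with total counts alone and with a replicate block. Ndufa4 was also lost with total counts alone. Cox5a and Cox5b, the subunits next to the catalytic core, had 0.14 ± 0.11 and -0.04 ± 0.13, and Cox6a1, Cox6b1, Cox7a2 and Cox8a lay between -0.18 and 0.04. None of these 6 passed.

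Complex V held risers and fallers. Atp5f1b had 1164, 912, 1180 and 1266 CPM in control livers and 1525 and 1227 with CCl4 alone. It had 1374, 1531, 1310 and 1418 CPM with CCl4 + 4MU, 1104, 1634, 1593 and 1116 with CCl4 + siLuc-LNP and 1478, 1425, 990 and 1402 with CCl4 + siHAS2-LNP. Of 14 mice with CCl4, 11 exceeded the median without it, 1148 CPM, and the change was 0.26 ± 0.09 (adjusted p = 0.0145). Its partner in the catalytic head, Atp5f1a, had 0.15 ± 0.08 (adjusted p = 0.15). Atp5if1 encodes the inhibitor that binds the catalytic head when the proton gradient collapses and keeps the enzyme from consuming ATP. It had 8.6, 12.2, 10.6 and 10.02 CPM in control livers and 11.9 and 16.4 with CCl4 alone, 9.58, 8.05 and 8.36 with 4MU and 16.5, 15.4, 17.7 and 19.4 with CCl4 + 4MU. It had 22.6, 15.8 and 12.5 CPM with siLuc-LNP and 19.8, 15.1, 20.4 and 12.4 with CCl4 + siLuc-LNP, and 10.4, 11.5 and 11.5 with siHAS2-LNP and 13.7, 12.7, 16.9 and 14.8 with CCl4 + siHAS2-LNP. All 14 mice with CCl4 exceeded the median without it, 10.6 CPM, and the overlap came from the siLuc-LNP mice and control mouse 2. Atp5if1 rose by 0.46 ± 0.10 (adjusted p = 0.000363) and was called under each alternative. The epsilon subunit Atp5f1e fell by 0.38 ± 0.16 (adjusted p = 0.0466), Atp5mk, a small subunit linked to dimers of the enzyme, by 0.30 ± 0.12 (adjusted p = 0.0337), and Atp5pf, the coupling factor of the stalk, by 0.28 ± 0.09 (adjusted p = 0.00833). Atp5f1e was called in 17 and Atp5mk in 22 of the 35 alternatives, and both were lost with total counts alone and with a replicate block. Atp5pf was also lost with total counts alone. The c ring genes Atp5mc1, Atp5mc2 and Atp5mc3 had -0.05 ± 0.10, 0.18 ± 0.12 and 0.06 ± 0.10 and did not pass.

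**Figure D5:**
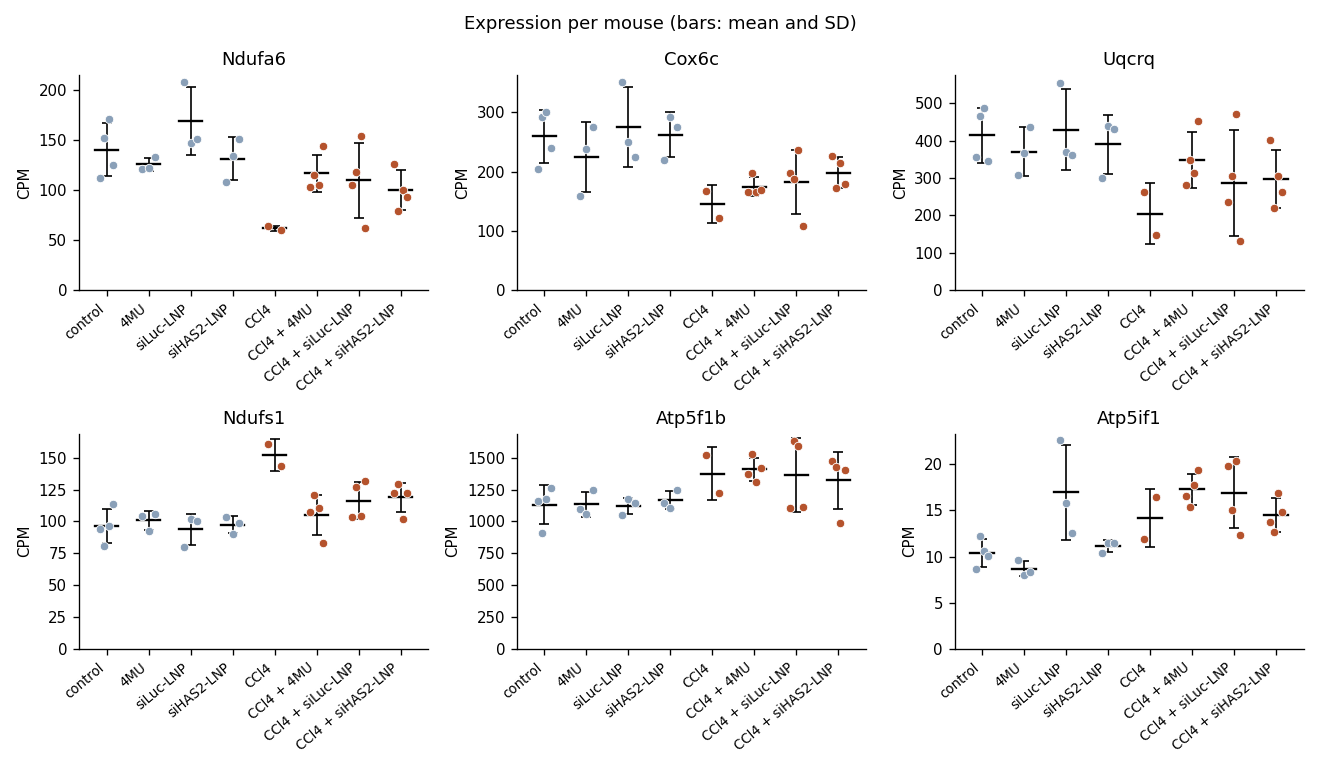
CPM of 6 subunit genes on linear axes from 0, 1 point per mouse, with the group mean and SD (blue-grey without CCl4, brown with CCl4). Ndufa6, Cox6c and Uqcrq lie lowest in CCl4 mouse 2 and in CCl4 + siLuc-LNP mouse 4. Ndufs1 lies highest in the 2 mice with CCl4 alone, and Atp5if1 lies above the control median in every mouse with CCl4.

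The 19 genes that fell had short coding regions, 156 to 567 bases with a median of 318, and the 4 that rose had 435 to 2181 bases with a median of 1032. The 58 genes that were not called had a median of 434 bases. The library slope and the offset use the length of the canonical transcript instead. Its median was 971 bases for the genes that fell, 1592 for those that rose and 1002 for those not called. With the offset for that length and GC content, Ndufa6 fell by 0.52, Cox6c by 0.45 and Uqcrq by 0.53. Ndufs1, Atp5f1b and Atp5if1 then stood at 0.23, 0.24 and 0.52.

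Arm by arm, the comparison with control set 2 mice with CCl4 alone against 4. There 16 genes were called, 1 higher and 15 lower, against 34.0% of all genes (16.1% lower), with a median of -0.21 beside -0.02. Ndufa6 fell by 1.18 ± 0.26 (adjusted p = 0.0013), and its 2 CCl4 mice lay below every control mouse. The share of all genes so separated was not counted. Ndufa4l2, a paralog of Ndufa4 that is induced by hypoxia in other tissues, had 1.83, 1.36, 2.22 and 1.80 CPM in control livers and 0.876 and 0.716 CPM with CCl4, a fall of 1.19 ± 0.40 (adjusted p = 0.0244) at a level near 1 CPM. Uqcrq fell by 1.03 ± 0.36 (adjusted p = 0.0287), Uqcr11 by 0.87 ± 0.33 (adjusted p = 0.0427), Ndufb4, an accessory subunit of the membrane arm, by 0.94 ± 0.25 (adjusted p = 0.00463) and Atp5pf by 0.60 ± 0.19 (adjusted p = 0.0182). Ndufs1 rose by 0.66 ± 0.16 (adjusted p = 0.00254). Cox5b-ps fell by 1.08 ± 0.33 (adjusted p = 0.0136), with 83.5% of its windows found elsewhere in the genome. DESeq2 also called 16. With total counts alone the calls were 14 higher and 1 lower, with a median of 0.17 where the median of all genes was 0.39, so relative to all genes the family lay 0.21 lower, beside 0.19 lower under TMM. The number of calls rested on single mice: without CCl4 mouse 2, whose length slope was 0.13, the count was 4 with 1 higher and 3 lower, without control mouse 3 it was 7 and without control mouse 2 it was 10. With the length and GC offset 4 were higher and 17 lower, and the family's median did not differ from that of all genes by more than 0.01. Here 3 of 10 hepatocyte markers fell, with sums of 172728 to 210055 CPM in control livers against 82420 and 138632 CPM, while 5 of 7 stellate cell and fibroblast markers and all 5 proliferation markers rose, and their part in the result was not tested.

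In the other arms few genes passed. With 4MU, 3 were higher and 1 lower with CCl4, against 23.7% of all genes (13.2% higher and 10.5% lower). Atp5if1 rose by 1.00 ± 0.19 (adjusted p = 0.000529), with no overlap between the 3 mice on 4MU and the 4 on CCl4 + 4MU. How many of all genes had no overlap there was not counted. Cox6b2, the testis-type isoform of a complex IV subunit, rose by 0.90 ± 0.30 (adjusted p = 0.0297), Atp5mc2 by 0.65 ± 0.23 (adjusted p = 0.0403), and Atp5mk fell by 0.63 ± 0.23 (adjusted p = 0.0431). DESeq2 called 4 as well. Without 4MU mouse 2 or 3, or without CCl4 + 4MU mouse 1, 2 or 4, the count was 1 or 2, and with the length and GC offset it was 14, with 2 higher and 12 lower. With siLuc-LNP, 1 gene was called, against 24.2% of all genes (11.2% lower): Ndufa6 fell by 0.62 ± 0.22 (adjusted p = 0.04). That count was 0 without siLuc-LNP mouse 1 or without CCl4 + siLuc-LNP mouse 1, 2 or 4, and 10 without CCl4 + siLuc-LNP mouse 3. With siHAS2-LNP, edgeR called 0 against 12.8% of all genes (7.74% higher and 5.09% lower), with 2 genes at an unadjusted p under 0.05 and 0 by DESeq2, and the lowest p belonged to Ndufa7, at -0.65 ± 0.27 (adjusted p = 0.12), Ndufb11, at -0.50 ± 0.23, and Atp5if1, at 0.38 ± 0.19. Side by side, 35 of the 81 genes lay below 0 in all 4 arms and 6 above 0, 19 were called in 1 arm and 1, Ndufa6, in 2 arms. The same counts were not made over all tested genes, so they do not set the family apart.

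The effect of each treatment in injured liver was read against CCl4 alone, and these 3 comparisons share the same 2 mice. With 4MU, 5 genes were higher and 1 lower, against 18.3% of all genes (8.28% higher), with a median of 0.14 beside 0.04. Ndufa6 was 0.92 ± 0.26 higher (adjusted p = 0.0171), with 103 to 143 CPM in 4 mice against 63.4 and 59.7 CPM. Ndufb4 was 0.75 ± 0.24 higher (adjusted p = 0.0344), with 57.8, 62.4, 59.2 and 60.4 CPM against 29.7 and 41.5 CPM. For both genes the treated mice lay above both mice with CCl4 alone, and the share of all genes that did so was not counted. Ndufa4l2 was 1.18 ± 0.40 higher (adjusted p = 0.0402) and Ndufs1 fell by 0.53 ± 0.16 (adjusted p = 0.0241). Cox5b-ps and Atp5mc2 were 1.01 ± 0.33 and 0.77 ± 0.26 higher (adjusted p = 0.0334 and 0.0446), both with most of their windows repeated elsewhere in the genome. With total counts alone the calls were 1 higher and 20 lower, where the median of all genes was -0.30 and that of the family -0.18, so relative to all genes the family lay 0.12 higher, beside 0.10 under TMM. With the length and GC offset the medians were -0.05 for the family and 0.04 for all genes, with 4 higher and 5 lower, and DESeq2 called 6 higher and 5 lower. In the same comparison 4 of 10 hepatocyte markers were higher, and their summed level was 159217 to 191717 CPM with CCl4 + 4MU against 82420 and 138632 CPM with CCl4 alone. All 5 proliferation markers were lower, with sums of 44.4 to 197 CPM against 289 and 552 CPM. The part of either list in the result was not tested. The count was 0 without CCl4 mouse 1 and 0 without CCl4 mouse 2, 2 without CCl4 + 4MU mouse 1 or 2 and 1 without CCl4 + 4MU mouse 4.

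With siHAS2-LNP, 3 genes were higher than with CCl4 alone, against 14.4% of all genes (7.11% higher and 7.33% lower). Cox6b2 was 1.29 ± 0.35 higher (adjusted p = 0.0158), with 28.3, 16.1, 28.4 and 17.9 CPM against 10.9 and 7.84 CPM. Ndufb2, with 5.71, 3.96, 5.18 and 6.54 CPM against 3.21 and 2.75 CPM, was 0.83 ± 0.27 higher (adjusted p = 0.0418), and Cox5b-ps 0.99 ± 0.33 (adjusted p = 0.0448). DESeq2 called 3. Here 3 of 7 stellate cell and fibroblast markers, 3 of 8 macrophage markers and 2 of 5 proliferation markers were lower, and their part in the result was not tested. The count was 0 without CCl4 mouse 2 and 1 without CCl4 mouse 1 or without CCl4 + siHAS2-LNP mouse 1, 3 or 4. With siLuc-LNP, edgeR called 0 against 0.248% of all genes (0.0567% higher and 0.191% lower), with 11 genes at an unadjusted p under 0.05 and 1 by DESeq2. The lowest p belonged to Ndufb4, at 0.82 ± 0.24 (adjusted p = 0.121), Atp5mc2, at 0.85 ± 0.26, and Ndufa6, at 0.83 ± 0.26 (both adjusted p = 0.136), and without CCl4 + siLuc-LNP mouse 4 the count was 8, all higher. Between the nanoparticle groups, CCl4 + siHAS2-LNP against CCl4 + siLuc-LNP, edgeR called 0 against 1.09% of all genes (0.786% higher and 0.305% lower), with 1 at an unadjusted p under 0.05 and 1 by DESeq2. Cox6b2 was nearest, at 0.95 ± 0.27 (adjusted p = 0.0802), with 9.72, 14.4, 16.0 and 7.49 CPM with siLuc-LNP. These lay below the siHAS2-LNP values, and the share of all genes so separated was not counted. Atp5mc2 and Atp5po followed, at -0.43 ± 0.21 and -0.29 ± 0.18.

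In mice without CCl4 edgeR called none of the 81 genes for 4MU against control (0.00709% of all genes called, 0.00% lower), for siLuc-LNP against control (0.213%, with 0.0850% higher and 0.128% lower) or for siHAS2-LNP against siLuc-LNP (0.0425%, with 0.0283% higher and 0.0142% lower). At an unadjusted p under 0.05 there were 0, 1 and 2 genes, and DESeq2 called 0 in each. The medians were -0.08, 0.05 and -0.07. Atp5if1 had the lowest p in all 3, at -0.26 ± 0.19 with 4MU, 0.71 ± 0.19 with siLuc-LNP (adjusted p = 0.194) and -0.61 ± 0.20 for siHAS2-LNP against siLuc-LNP (adjusted p = 0.311). Ndufa9, an accessory subunit of complex I, was at 0.25 ± 0.14 and -0.27 ± 0.15 in the last 2, which share the siLuc-LNP mice. Of these, mouse 1 had the highest Atp5if1 of all 27 mice. The interaction of 4MU with CCl4 called 0 genes in edgeR against 5.67% of all genes (2.72% higher and 2.95% lower), with 14 at an unadjusted p under 0.05 and 4 by DESeq2, and was largest in p for Ndufa6, at 1.08 ± 0.34 (adjusted p = 0.0568), Ndufb4, at 0.99 ± 0.32 (adjusted p = 0.0613), and Cox5b-ps, at 1.30 ± 0.43 (adjusted p = 0.0648). The interaction of siHAS2-LNP with CCl4, set against siLuc-LNP, called 0 in edgeR against 0.0354% (0.0213% higher and 0.0142% lower), with 0 at an unadjusted p under 0.05 and 0 by DESeq2, and Cox6b2 came nearest, at 0.84 ± 0.41 (adjusted p = 0.437), followed by Atp5if1 and Ndufb3, at 0.39 ± 0.27 and 0.45 ± 0.31.

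Muscle isoforms were low or at the edge of detection, whereas the testis-type Cox6b2 had 134 to 722 counts per mouse. Cox6a2 and Cox8b, the heart and skeletal muscle isoforms, had at most 6 and 2 counts in any mouse, and Cox7b2 and Cox8c had 0 in all 27, where 3 counts correspond to 0.102 to 0.426 CPM. The liver isoforms Cox6a1 and Cox8a stood at 412 ± 47.6 and 350 ± 24.9 FPKM in control livers, against 4.07 ± 2.17 FPKM for Cox7a1, a muscle isoform that was measured. Cox7a1 had 0.52 ± 0.27 with CCl4 over the arms (unadjusted p = 0.0626, not past the threshold after adjustment). Cox4i2, the isoform of Cox4 in oxygen-sensing tissues, had 0.0808 to 0.608 CPM per mouse and was not tested, whereas Cox4i1 had 432, 482, 520 and 411 CPM in control livers, a level not divided by length.

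Counts for related gene lists over all arms stand beside the 51.9% of all genes called in that comparison. Over all arms, 0 of 13 mitochondrially encoded subunits passed in edgeR, with 2 at an unadjusted p under 0.05 and 1 by DESeq2. All 13 had negative values, with a median of -0.26. With CCl4 alone against control 6 fell and 0 rose, against 34.0% of all genes (16.1% lower), with a median of -1.08. That comparison rests on 2 mice with CCl4 alone, whose sums were 10653 and 27107 CPM against 31721 to 48516 CPM in control livers. Counts of these subunits were very uneven, with mt-Co1 at 17371 CPM and mt-Co2 at 114 CPM in the median control mouse. Copies of these genes elsewhere in the genome were not measured here. Of 46 tested assembly factors 7 rose and 22 fell. Surf1, an assembly factor of complex IV, fell by 0.69 ± 0.08 (adjusted p = 8.2e-08) and Uqcc5 by 0.58 ± 0.16. Cox15, which makes heme A, rose by 0.37 ± 0.11, as did Lyrm7, an assembly factor of complex III, by 0.37 ± 0.14. Of 77 mitochondrial ribosomal proteins 2 rose and 36 fell, with a median of -0.19. Mrpl14 fell by 0.65 ± 0.13 and Mrpl38 by 0.51 ± 0.08, and the 2 that rose were Mrps25, by 0.44 ± 0.10, and Mrpl28, by 0.24 ± 0.10. Of 14 biogenesis regulators 1 rose, Esrra, by 0.37 ± 0.12, and 3 fell, among them Tfb2m, a mitochondrial transcription factor, by 0.33 ± 0.07, and Yy1 by 0.32 ± 0.05. The coactivator Ppargc1a, the factor Nrf1 and Tfam had 0.01 ± 0.13, 0.15 ± 0.08 and -0.10 ± 0.06 and did not pass.

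Of 14 genes of the tricarboxylic acid cycle 4 rose and 3 fell. Dlst rose by 0.36 ± 0.06 and Idh2 by 0.32 ± 0.08, and Suclg2 and the citrate synthase gene Cs fell by 0.45 ± 0.09 and 0.35 ± 0.11. Of 10 genes of cardiolipin and cristae 2 rose and 4 fell, with Tafazzin, which remodels cardiolipin, down by 0.61 ± 0.07, Crls1, which makes it, down by 0.54 ± 0.07, and Immt and Pgs1 up by 0.15 ± 0.06 and 0.26 ± 0.10. Of 12 genes of the outer membrane and import 2 rose, Timm50 and Hspd1, by 0.25 ± 0.08 and 0.22 ± 0.08, and 2 fell, Tomm70a and Timm44, by 0.29 ± 0.06 and 0.22 ± 0.06. Among the neighbours that the symbol pattern did not take, the electron carrier Cycs rose by 0.23 ± 0.09 (adjusted p = 0.034), while Cox4i1, Ndufab1 and Cyc1 had -0.23 ± 0.12, -0.09 ± 0.08 and 0.06 ± 0.09 and did not pass.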

How the data were processed

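Poly(A) RNA of 27 livers was made into libraries with a directional kit and sequenced in paired ends. Per the labels and methods, the authors trimmed reads with Trimmomatic 0.39, aligned them to GRCm39 with HISAT2 and deposited raw counts per Ensembl gene from featureCounts, leaving out reads that mapped to several places; the strand setting is not given in the sources used here. Pairs of overlapping genes on opposite strands can therefore not be separated with certainty. Symbols, lengths and GC content came from GENCODE M39 (54749 of 55414 identifiers matched).

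Counts were tested with edgeR 4.0.16 (R 4.3.3), quasi-likelihood, TMM scaling, 1 fit of all 8 groups, 14114 genes averaging 10 counts or more, and Benjamini-Hochberg adjustment over all of them at 0.05; no unit other than counts was used. CPM use TMM totals, and log values add 0.5 CPM. In 14 comparisons, DESeq2 1.42.0 and its size factors, total counts only, no count minimum, only the compared groups, a replicate block and each mouse left out were alternatives. A transcript length and GC offset (lowess span 0.3) and a fit without CCl4 + siLuc-LNP mice 3 and 4 were added after seeing the data. The fits were tested on simulated counts. The genes and lists were chosen with earlier results of these data known. Named genes were those with a fixed role, the 2 highest and 2 lowest called per complex and comparison, or the 3 with the lowest p where none was called; of other lists, the 2 highest and 2 lowest called over all arms. 1 item is not reported here. Each replicate was taken as 1 mouse. The p-values set a group difference against the spread between mice, which the main fit estimated over all 8 groups together. Intervals and SE of fold changes come from the fit across mice, and the limits for counts of 0 cover counting error only.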

Additional observations from a re-analysis of the deposited data

Results flagged for a closer look

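In groups of 4 mice, the highest or lowest value was set against the others by Dixon's gap, which chance passes in about 5% of groups, and 12 of 156 group values for 39 quantities passed it.

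In CCl4 + siHAS2-LNP, mouse 1 had a summed subunit level of 15020 CPM against 12102 to 12483 in the others. The same mouse was apart for Sdhc at 289 CPM, Sdhd at 292 CPM, Ndufa7 at 115 CPM and Atp5f1e at 188 CPM. Mouse 3 of that group was low for Atp5f1b, at 990 CPM against 1402 to 1478. In CCl4 + 4MU, mouse 2 was high for Atp5f1a at 1235 CPM and Cox6c at 198 CPM. Mouse 4 of CCl4 + 4MU was high for Cox6a1, at 287 CPM against 206 to 215, and for Cox7a1, at 4.84 CPM against 1.45 to 1.81. That mouse also had 21.8 CPM of Myh11, the smooth muscle myosin, where the other 26 mice had at most 2.94 CPM; Ckm, of skeletal muscle, was at 0.0712 CPM there. Cox7a2l was high in control mouse 4 at 106 CPM, and low in CCl4 + siLuc-LNP mouse 4 at 51.5 CPM against 83.0 to 89.4.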

How the results depend on the processing

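Counts of called subunit genes join both directions unless a direction is named. The share of all genes called is given for total counts alone and for the length and GC offset, and not for the other alternatives. DESeq2 called 2 in CCl4 + siLuc-LNP against siLuc-LNP, 11 in CCl4 + 4MU against CCl4, 1 in CCl4 + siLuc-LNP against CCl4, 1 in CCl4 + siHAS2-LNP against CCl4 + siLuc-LNP and 4 in the 4MU interaction. Total counts alone called 2 higher in CCl4 + siHAS2-LNP against siHAS2-LNP, against 14.5% of all genes. In CCl4 + 4MU against CCl4 this scaling called 21, with 1 higher and 20 lower (26.3% of all genes). It called 1 in CCl4 + siHAS2-LNP against CCl4 (14.5%) and 1 in CCl4 + siHAS2-LNP against CCl4 + siLuc-LNP (1.45%). In the 4MU interaction it called 8, all lower (15.5%). There the median was -0.22 for the family and -0.38 over all genes, so the family lay 0.16 higher relative to all genes. Without a count minimum the counts of these comparisons were 3, 1, 11, 1, 3, 1 and 4, for CCl4 + siLuc-LNP and CCl4 + siHAS2-LNP against their LNP controls, the 3 treatments against CCl4 in the order 4MU, siHAS2-LNP and siLuc-LNP, the 2 LNP groups and the 4MU interaction. With only the compared groups they were 0 in CCl4 + siLuc-LNP against siLuc-LNP, 1 in CCl4 + siHAS2-LNP against siHAS2-LNP, 1 in CCl4 + siHAS2-LNP against CCl4 and 7 in the 4MU interaction. The length and GC offset called 40 over all arms, 14, 7 and 4 in the 4MU, siLuc-LNP and siHAS2-LNP arms, 7 in CCl4 + siHAS2-LNP against CCl4, 1 in CCl4 + siLuc-LNP against CCl4, 1 between the LNP groups and 4 in the 4MU interaction. Without CCl4 + siLuc-LNP mice 3 and 4 the counts were 0 against siLuc-LNP and 2 against CCl4. The cause was not tested.

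With 1 mouse left out, counts ran from 4 to 16 for CCl4 against control, 1 to 6 in the 4MU arm, 0 to 10 in the siLuc-LNP arm, 17 to 38 over all arms, 0 to 5 for CCl4 + 4MU, 0 to 3 for CCl4 + siHAS2-LNP and 0 to 8 for CCl4 + siLuc-LNP against CCl4, and 0 to 0 in the other 7 comparisons. Where CCl4 is left with 1 mouse, that mouse is assumed to vary like the other groups.

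Replicate numbers did not pair the mice: deviations of mice with the same number correlated from -0.35 to 0.36 over 83 pairs, median -0.02, above 0.1 in 18. With the replicate block 18 were called over all arms, all among the 23, and the count was 0 in CCl4 + siLuc-LNP against siLuc-LNP, 1 in CCl4 + siHAS2-LNP against CCl4 and 1 in the 4MU interaction. No named subunit reversed its sign in any alternative where it was called. Depth limited genes near 1 CPM, such as Ndufa4l2 and Cox7a1.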

Other observations

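The processed copy Ndufa12-ps, which the symbol pattern leaves out as a pseudogene, had a mean of 286 counts per mouse and lay at 5.60 to 20.1 CPM, with its lowest value in CCl4 mouse 1. It was the highest of 17 noncoding genes that matched the pattern by name. Ndufs5-ps and Atp5l2-ps followed with means of 17.6 and 11 counts.

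Cytosolic ribosomal proteins, short and abundant transcripts like most subunits, were set beside the family as values. The mean log2 deviation of 85 ribosomal protein genes was highest in CCl4 + siLuc-LNP mouse 3, at 0.64, and lowest in CCl4 + siLuc-LNP mouse 4, at -0.40, the same mice as for the subunits, which had 0.39 and -0.64. In CCl4 mouse 2 the families parted, with 0.06 for ribosomal proteins and -0.40 for the subunits.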
